A study of Mus musculus with 28 samples.

Results

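The genes described here are 2 neurotrophins and 3 of their receptors, Bdnf, Ntf3, Ntrk2, Ntrk3 and Ngfr, chosen by symbol, with earlier results of these data known. They are 5 of the 49477 genes that both count tables of this study list, and all 5 passed the filter on low counts that left 16266 genes for testing. The tissue was amygdala, taken as micropunches from 28 female mice of C57BL/6J, an inbred strain that drinks ethanol readily, and its RNA was sequenced in 2 batches of separate mice. Mice arrived at 7 weeks of age, were housed singly and had 2 drinking tubes for 28 days. The 10 Water mice had water in both tubes throughout, the 9 Acute mice had a tube of 20% ethanol on the last day only (1 day), and the 9 Chronic mice had a tube of 20% ethanol on alternate days (14 days). Of these, 4 Water, 4 Acute and 3 Chronic animals made up the first batch, and 6, 5 and 6 the second. All tissue was taken on day 29, early in the light phase, with the tubes left in place until then, and the punches were aimed to take in both the basolateral and the central amygdala. The samples therefore hold mixed cells from several nuclei, and fewer cells of a type cannot be told apart from less RNA per cell.

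Total counts per mouse ranged from 20004380 to 22569562. Markers of pallial excitatory neurons and of the central amygdala were detected in every mouse, with summed levels of 1166 to 2420 and of 303 to 414 CPM (counts per 1000000 counts of a library, TMM-scaled). Markers of neighbouring structures were also present and varied far more between mice, with summed choroid plexus markers between 11.9 and 4330 CPM and summed cholinergic markers between 3.90 and 63.1 CPM. The question put to the neurotrophin genes was whether their levels differed between Water, Acute and Chronic mice once the batch was taken into account.

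Neurotrophins are secreted growth factors that keep neurons alive during development and adjust synapses in the adult brain. BDNF signals through the receptor tyrosine kinase TrkB, the product of Ntrk2, and neurotrophin-3, the product of Ntf3, signals mainly through TrkC, the product of Ntrk3. The p75 receptor encoded by Ngfr binds every neurotrophin as well as their uncleaved precursors, and in the adult forebrain it is best known from cholinergic neurons. In the amygdala BDNF is known mainly for its part in fear learning. Both Trk genes also give rise to truncated receptors without the kinase, and truncated TrkB is abundant in astrocytes.

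Bdnf (ENSMUSG00000048482) lies on the plus strand at chr2:109674700-109727007 of GRCm38 and has 11 annotated transcripts, all of them coding. Ntf3 (ENSMUSG00000049107) lies on the minus strand at chr6:126101412-126166910 and has 3 transcripts. Ntrk2 (ENSMUSG00000055254), at chr13:58806569-59133970 on the plus strand, has 10 transcripts, of which 7 are coding, and Ntrk3 (ENSMUSG00000059146), at chr7:78175959-78738012 on the minus strand, has 20, of which 6 are coding. Ngfr (ENSMUSG00000000120), at chr11:95568818-95587735 on the minus strand, has 1. Counts were summed over each whole gene, so transcripts from different Bdnf promoters, and kinase-bearing and truncated receptors, were counted together. Exons of Bdnf overlap the antisense gene Gm45346 on the opposite strand, and reads shared between them were not separated here.

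Bdnf is read from several alternative promoters, several of which respond to neuronal activity, and RefSeq promoter windows on GRCm38.p6, each of 300 bases (250 before to 50 after a start), were matched by symbol for 4 of the 5 genes: 7 windows for Bdnf, 2 for Ntf3 and 1 each for Ntrk2 and Ngfr. Searched on both strands, the letters TNACGTCA (a site like that bound by CREB) were found in 2.93% of 32851 RefSeq windows, and the letters TCGTG (the core bound by the activity-induced factor NPAS4) in 16.04%. Among the members' windows, TNACGTCA was found only in Bdnf window 3, at position -38 from the start, and TCGTG only in Bdnf windows 1, 2 and 3, with 2, 1 and 2 matches. No match overlapped another. The 2 Bdnf windows with more than 1 match are shown, 5′ to 3′ on the plus strand, because their transcripts are pooled in the Bdnf count, and the capitals mark the matches.
Bdnf window 1, chr2:109674450-109674749: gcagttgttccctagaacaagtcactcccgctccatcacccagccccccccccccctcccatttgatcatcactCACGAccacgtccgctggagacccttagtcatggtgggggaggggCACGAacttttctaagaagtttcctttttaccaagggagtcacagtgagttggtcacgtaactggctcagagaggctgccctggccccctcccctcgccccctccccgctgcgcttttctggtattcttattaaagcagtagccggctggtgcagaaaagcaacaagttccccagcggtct
Bdnf window 3, chr2:109692186-109692485: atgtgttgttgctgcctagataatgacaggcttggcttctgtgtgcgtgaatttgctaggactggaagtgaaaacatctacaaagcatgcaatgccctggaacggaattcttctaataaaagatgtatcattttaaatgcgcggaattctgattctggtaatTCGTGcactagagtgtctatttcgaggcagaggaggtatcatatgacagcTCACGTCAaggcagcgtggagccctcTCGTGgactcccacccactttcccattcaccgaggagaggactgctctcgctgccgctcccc
In window 1, which holds the annotated start of the gene, both matches are to TCGTG read on the other strand (CACGA). In window 3, the longer run of capitals is the match to TNACGTCA, and TCGTG lies on either side of it.

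Scaled to annotated exon length, the receptors Ntrk2 and Ntrk3 were expressed at higher levels than either ligand. In the 10 Water mice, Ntrk2 had 36.5 ± 1.51 CPM per kb of exon (SD, n = 10), Ntrk3 6.24 ± 0.433, Bdnf 4.18 ± 0.472, Ngfr 0.956 ± 0.551 and Ntf3 0.497 ± 0.248. The ranges of neighbours in this order did not overlap from Ntrk2 down to Bdnf and Ngfr, but Ngfr (0.330 to 2.33 CPM per kb) and Ntf3 (0.170 to 0.955) overlapped. The order was the same when each gene was scaled to its longest coding transcript (80.6, 9.55, 6.09, 0.956 and 0.575). The raw counts behind these levels were 12835 to 17678 per mouse for Ntrk2, 3079 to 4675 for Ntrk3, 356 to 683 for Bdnf, 25 to 317 for Ngfr and only 2 to 36 for Ntf3.

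The genes also differed in how much they varied between mice of the same group and batch. The biological coefficient of variation, the spread between mice beyond counting error, was 5.55% for Ntrk2, 7.76% for Ntrk3 and 16.4% for Bdnf, against a median of 8.16% over the genes tested. It was 43.0% for Ntf3 and 56.2% for Ngfr, and 98.6% of the genes tested varied less than Ngfr. Between its lowest and its highest mouse Ntrk2 differed by 1.21-fold in CPM, Bdnf by 2.25-fold and Ngfr by 12.1-fold. Means of log2 CPM were higher by 0.23 in the second batch for Bdnf, lower by 0.66 for Ngfr (second minus first -0.66) and lower for Ntf3 (-0.29), while Ntrk2 (-0.01) and Ntrk3 (-0.06) were close.

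**Figure D1:**
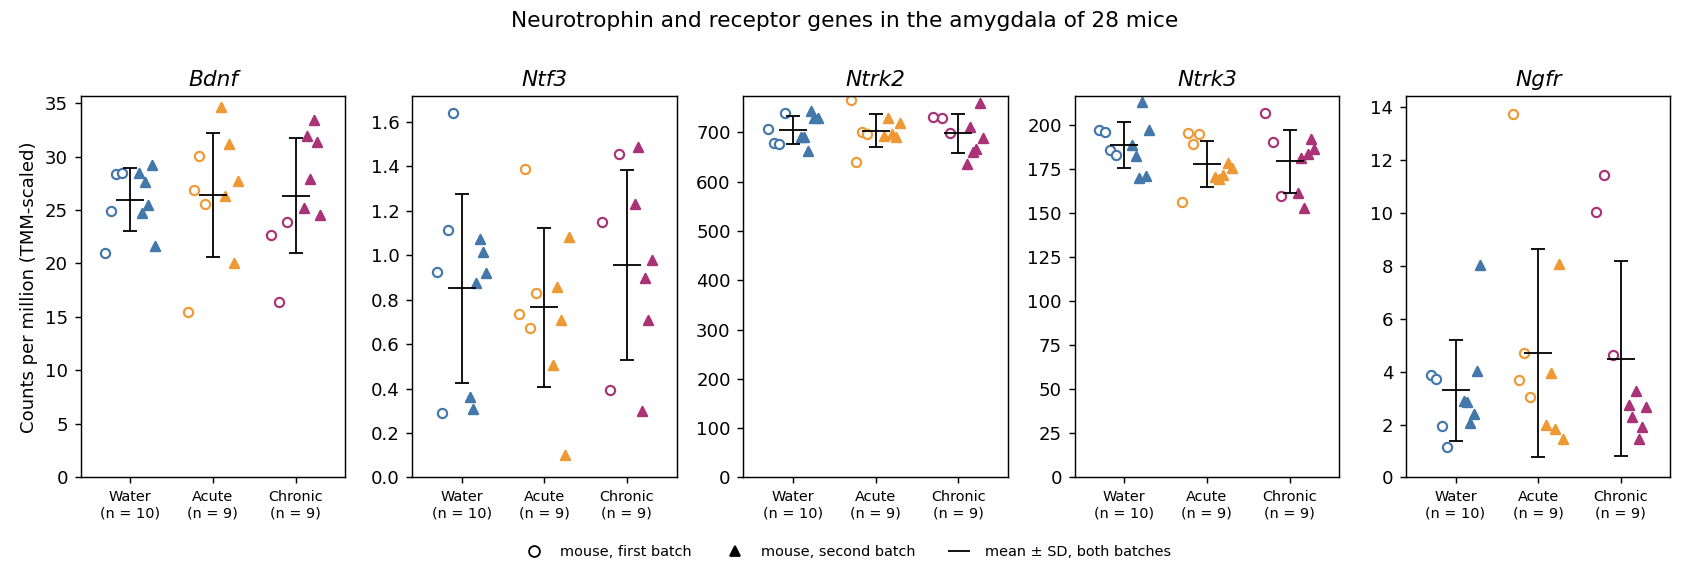
Normalised level (CPM, y axis from 0, a separate scale for each gene) of Bdnf, Ntf3, Ntrk2, Ntrk3 and Ngfr in each of 28 mice by drinking group; open circles are mice of the first batch, filled triangles mice of the second, and bars the mean ± SD of the group. Water, Acute and Chronic mice overlap for every gene, and the spread between mice is widest for Ngfr, from 1.14 to 13.8 CPM.

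None of the 5 genes passed the test for a difference between drinking groups. With edgeR's quasi-likelihood test and Benjamini-Hochberg adjustment over 16266 genes, 0 of 5 were called at an adjusted p of 0.05 in Acute vs Water, Chronic vs Water or Chronic vs Acute, where 0%, 0.0184% and 0% of all genes tested were called. At an unadjusted p under 0.05 the count was also 0 of 5 in each comparison, against 9.52%, 10.5% and 4.44% of all genes. Limma-voom called 0 of 5 as well. DESeq2, with batch as a covariate or after ComBat-seq, called no member to which it gave an adjusted p. In the comparisons with Water it gave none for Ntf3 in either fit, and for Ngfr none with batch as a covariate or, in Chronic vs Water, after ComBat-seq. Acute and Chronic mice were each compared with the same Water mice, so the first 2 comparisons are not independent.

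Among the ligands, Bdnf, the main neurotrophin of the adult forebrain, stood at 21.02 to 29.2 CPM in Water mice (median 26.6), 15.4 to 34.7 in Acute mice (median 26.9) and 16.4 to 33.4 in Chronic mice (median 25.2). The lowest and the highest values of the whole study both belonged to Acute mice, and the groups overlapped throughout. The log2 fold change of Bdnf was 0.03 in Acute vs Water (95% interval -0.20 to 0.25, adjusted p = 0.959), -0.01 in Chronic vs Water (-0.24 to 0.22, adjusted p = 0.983) and -0.04 in Chronic vs Acute (-0.27 to 0.20, adjusted p = 0.9995). Exact permutation of the group labels within batches gave p = 0.983, 0.880 and 0.804 (2-sided), and 6 of 9 Acute and 5 of 9 Chronic mice lay above the Water mean. By batch, the Chronic vs Water value of Bdnf came to -0.29 (first, p = 0.165) and 0.15 (second, p = 0.185), with an unadjusted p of 0.0594 and an adjusted p of 0.821 for the difference.

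Ntf3, which encodes neurotrophin-3, ranged from 0.291 to 1.64 CPM in Water mice (median 0.922), from 0.103 to 1.39 in Acute mice (median 0.737) and from 0.298 to 1.49 in Chronic mice (median 0.979). The Acute minimum rests on 2 counts in a single mouse. Log2 fold changes were -0.17 (95% interval -0.84 to 0.49, adjusted p = 0.902) in Acute vs Water, 0.19 (-0.46 to 0.84, adjusted p = 0.882) in Chronic vs Water and 0.36 (-0.32 to 1.03, adjusted p = 0.998) in Chronic vs Acute, with exact permutation p = 0.665, 0.602 and 0.368. The intervals hold differences down to -0.84 in Acute vs Water and up to 0.84 in Chronic vs Water. With 1 mouse left out at a time the fold change ranged from -0.30 to -0.03 in Acute vs Water, where it was -0.03 without Acute mouse 4 or Water mouse 43, from 0.07 to 0.33 in Chronic vs Water, and in Chronic vs Acute from 0.21 without Acute mouse 4 to 0.51 without Chronic mouse 38.

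Ntrk2, which encodes TrkB, was the most abundant and the steadiest of the 5. Its level was 662 to 744 CPM in Water mice (median 699), 640 to 767 in Acute mice (median 697) and 636 to 760 in Chronic mice (median 698), so the group medians lay within 2 CPM of each other. The log2 fold change was -0.003 in Acute vs Water (95% interval -0.07 to 0.07, adjusted p = 0.987), -0.01 in Chronic vs Water (-0.08 to 0.06, adjusted p = 0.925) and -0.01 in Chronic vs Acute (-0.08 to 0.06, adjusted p = 0.9995). The exact permutation p was 0.942, 0.688 and 0.805. These intervals are the narrowest of the 5 genes.

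Ntrk3, which encodes TrkC, had the smallest p of the 5 in the comparisons with Water, without passing the test. It was at 170 to 213 CPM in Water mice (median 187), 156 to 195 in Acute mice (median 175) and 153 to 207 in Chronic mice (median 184). Against the Water mean, 7 of 9 Acute mice and 6 of 9 Chronic mice were lower, and the groups overlapped. The log2 fold change was -0.09 in Acute vs Water (95% interval -0.19 to 0.02, p = 0.0997, adjusted p = 0.595, exact permutation p = 0.0877), -0.07 in Chronic vs Water (-0.17 to 0.04, adjusted p = 0.670, exact permutation p = 0.230) and 0.02 in Chronic vs Acute (-0.09 to 0.12, adjusted p = 0.9995, exact permutation p = 0.779). With 1 mouse left out at a time it ranged from -0.10 to -0.06 in Acute vs Water and from -0.09 to -0.04 in Chronic vs Water, where it was -0.04 without Chronic mouse 39, Chronic mouse 3 or Water mouse 4.

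The level of Ntrk3 moved with the trends of the libraries on gene length (here the annotated exon length of a gene, not its span) and on GC content. Each mouse's trend of log2 CPM on gene length correlated with Ntrk3 at r = 0.603 over 28 mice (Spearman's rho 0.457, 0.337 and 0.748 within the batches, 0.464 without the 2 mice farthest from the median) and with Ntrk2 at r = 0.588. The trend on GC content correlated with Ntrk3 at r = -0.559 (rho -0.548, -0.450 and -0.630 within the batches, -0.308 without the 2 farthest mice) and with Ntrk2 at r = -0.347. The slope per doubling of length was -0.00379 to 0.0419 in Water mice (median 0.00616), -0.0205 to 0.0165 in Acute mice (median -0.00815) and -0.0566 to 0.0231 in Chronic mice (median -0.00182). For GC content the slope per 10 percentage points was -0.104 to 0.0370 in Water mice (median -0.0231), -0.0219 to 0.0511 in Acute mice (median -0.0100) and -0.0186 to 0.0726 in Chronic mice (median 0.0273), so the groups overlapped in both. The offsets act on both trends at once. With offsets that remove each mouse's trends on gene length and GC content, the Ntrk3 log2 fold change was 0.0005 in Acute vs Water (p = 0.987) and -0.01 in Chronic vs Water (p = 0.770). For Ntrk2 the same offsets gave 0.06 (p = 0.0699) and 0.03 (p = 0.313).

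Ngfr, the gene of the p75 receptor, varied most between mice, and its fold changes against Water had opposite signs in the batches. Over both batches it was at 1.14 to 8.02 CPM in Water mice (median 2.87), 1.44 to 13.8 in Acute mice (median 3.67) and 1.45 to 11.4 in Chronic mice (median 2.76). Log2 fold changes were 0.38 in Acute vs Water (95% interval -0.43 to 1.18, adjusted p = 0.796), 0.30 in Chronic vs Water (-0.50 to 1.11, adjusted p = 0.832) and -0.07 in Chronic vs Acute (-0.86 to 0.72, adjusted p = 0.9995). The exact permutation p was 0.455, 0.450 and 0.825. These intervals are wide enough to hold a doubling in either comparison with Water.

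In the first batch, the Water mice had 1.14, 1.961, 3.73 and 3.88 CPM of Ngfr, the Acute mice 3.05, 3.67, 4.71 and 13.8, and the Chronic mice 4.63, 10.03 and 11.4. All 3 Chronic mice were above all 4 Water mice. In the second batch the 6 Water mice had 2.06 to 8.02 CPM (median 2.87), the Acute mice 1.44, 1.83, 1.98, 3.94 and 8.07, and the 6 Chronic mice 1.45 to 3.27 (median 2.48), so the groups overlapped. In the first batch alone the log2 fold change of Ngfr was 1.71 in Chronic vs Water (p = 0.00855, adjusted p = 1.0) and 1.24 in Acute vs Water (p = 0.0351, adjusted p = 0.672), where 3.52% and 7.21% of all genes had an unadjusted p under 0.05. In the second batch alone it was -0.63 (p = 0.121) and -0.11 (p = 0.792). The difference between the batches in Chronic vs Water was -2.33 on the log2 scale (unadjusted p = 0.00247, adjusted p = 0.718 over all genes), and Ngfr was the 1 gene of the 5 with an unadjusted p under 0.05 for that difference, against 6.15% of all genes. In Acute vs Water the difference was -1.34 (unadjusted p = 0.0604, adjusted p = 0.999), with 4.13% of all genes under 0.05.

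**Figure D2:**
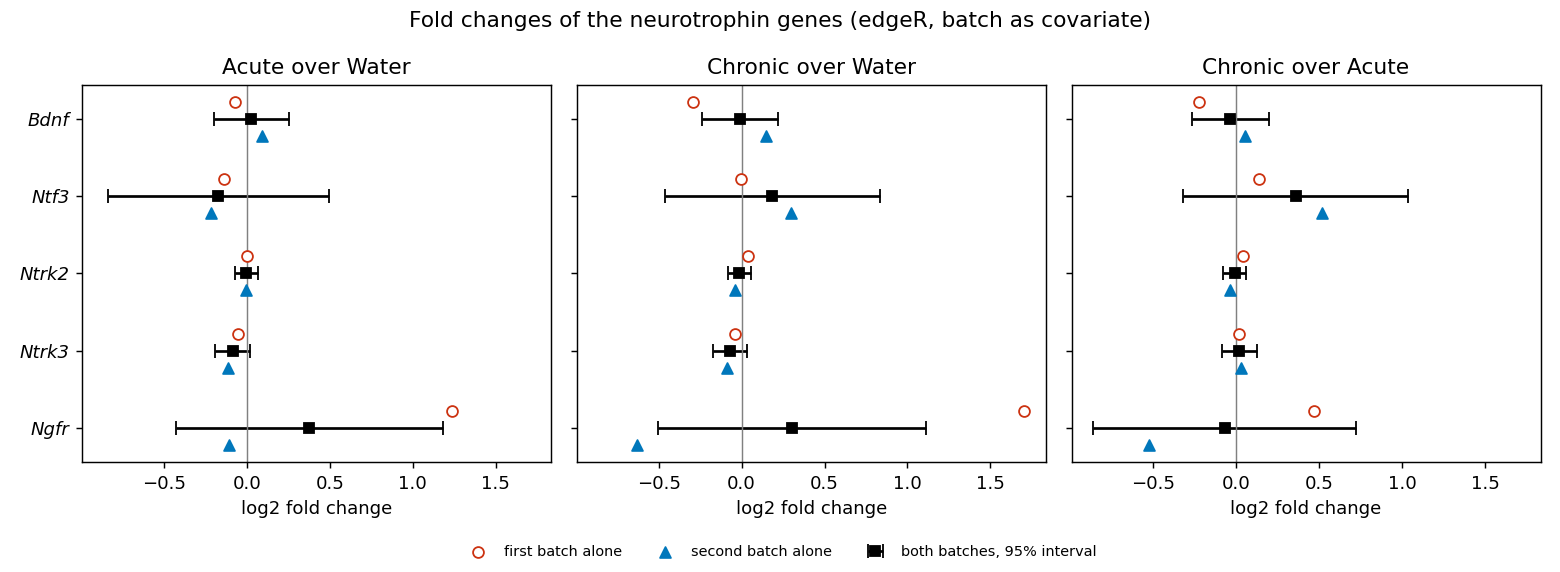
Log2 fold change (x axis) of each gene in the 3 comparisons; black squares with bars are the edgeR values over both batches with 95% intervals, open circles the first batch alone and triangles the second batch alone. Every interval includes 0, the narrowest are those of Ntrk2, and the Ngfr values of the batches lie at 1.71 and -0.63 in Chronic over Water.

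Across mice, Bdnf and Ngfr moved in opposite directions. With batch means removed, Pearson's r between their log2 CPM was -0.787 over 28 mice (Spearman's rho -0.656). Within the batches it was -0.795 and -0.776. It was -0.701 without the 2 mice farthest from the median of Bdnf, and -0.799 with the group means removed as well. With the offsets for length and GC content it was -0.770. The 4 mice with the lowest Bdnf relative to their batch were Acute mouse 33 (15.4 CPM) and Chronic mouse 38 (16.4 CPM) of the first batch and Acute mouse 4 (20.0 CPM) and Water mouse 6 (21.6 CPM) of the second. Their Ngfr was 13.8, 11.4, 8.07 and 8.02 CPM, the highest of their batches. Each group had such a mouse. In the other 9 of the 10 pairs among the 5 genes, r lay between -0.401 (Ntf3 and Ngfr) and 0.339 (Bdnf and Ntf3); for Ntrk2 and Ntrk3 it was 0.188, with -0.376 and 0.600 within the batches. All points share the libraries and their composition, and these correlations are given as descriptions without a test.

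**Figure D3:**
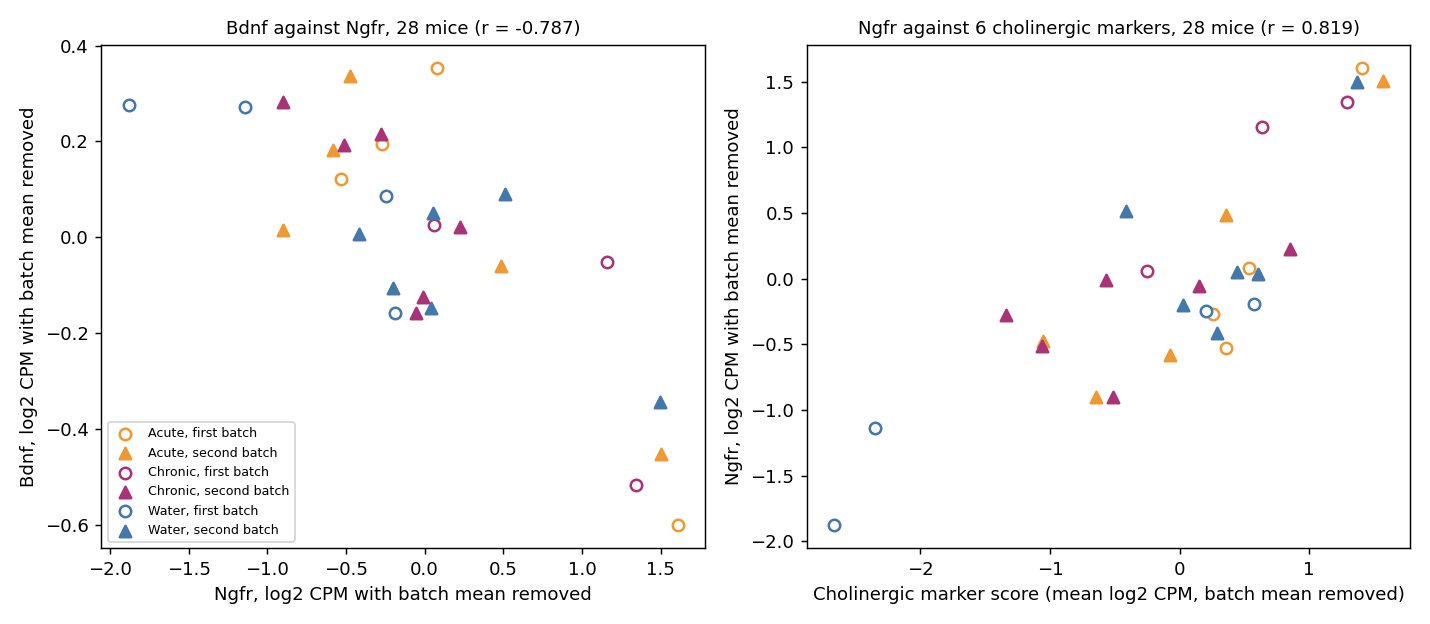
Each point is 1 of 28 mice, coloured by drinking group, with open circles for the first batch and triangles for the second; axes are log2 CPM with batch means removed. On the left Bdnf is plotted against Ngfr (r = -0.787), and on the right Ngfr against the mean of 6 cholinergic marker genes (r = 0.819), with Water, Acute and Chronic mice all found at the high end of Ngfr.

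The genes most like each member over the 28 mice, by Pearson's r with batch means removed, were as follows. For Bdnf they were Crhbp, which encodes the binding protein of corticotropin-releasing hormone (r = 0.836), Cck, which encodes the neuropeptide cholecystokinin (0.827), and the potassium channel gene Kcnj3 (0.822). For Ntf3 they were Pdzrn3 (0.807), Sh3bp4 (0.794) and the synaptic adhesion gene Tenm2 (0.792). Those of Ngfr were the orphan receptor gene Gpr101 (0.887), Fads6 (0.886) and the diacylglycerol kinase gene Dgkk (0.880). In the batches taken alone, r of Bdnf was 0.843 and 0.846 with Crhbp, 0.916 and 0.699 with Cck, and 0.880 and 0.740 with Kcnj3. With the offsets for length and GC content, r lay between 0.783 and 0.879 for all 9 of these genes. Those of Ntrk3 were the calcium channel genes Cacna1e (0.895) and Cacna1c (0.891) and the lipoprotein receptor gene Lrp1b (0.893), and those of Ntrk2 were Cdc37l1 (0.801), the decapping enzyme gene Dcp2 (0.741) and Klf12 (0.737). With the offsets, r dropped to 0.387, 0.472 and 0.416 for Ntrk3 (Cacna1e, Cacna1c and Lrp1b) and to 0.523, -0.033 and -0.111 for Ntrk2 (Cdc37l1, Dcp2 and Klf12).

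Marker lists of other cell types and neighbouring structures moved with several of the 5 genes. Ngfr had r = 0.819 with the score of 6 cholinergic markers (0.864 and 0.752 within the batches, 0.750 without the 2 farthest mice), and r was above 0 with 6 of the 6 genes. It had r = 0.792 with the oligodendrocyte score (9 of 9 genes above 0, 0.945 and 0.555 within the batches) and -0.755 with that of pallial excitatory neurons (0 of 8 above 0). Bdnf showed the opposite signs, with r = -0.710 for cholinergic markers (0 of 6 above 0), -0.627 for oligodendrocytes (0 of 9, -0.804 and -0.356 within the batches) and 0.672 for pallial excitatory neurons (8 of 8). That last value fell to 0.453 without the 2 farthest mice, with Spearman's rho at 0.377. With markers of the central amygdala, r was 0.621 for Ngfr (5 of 6 above 0), -0.543 for Bdnf (1 of 6) and -0.511 for Ntf3 (0 of 6). Ntf3 had r above 0.5 with pallial excitatory neurons (0.614, 7 of 8), the dentate gyrus and hippocampus (0.561, 3 of 5) and the choroid plexus (0.5004, 6 of 6), and below -0.5 also with the striatum (-0.557, 0 of 8), cholinergic neurons (-0.545, 0 of 6) and oligodendrocytes (-0.539, 0 of 9). Astrocyte and endothelial scores had r of -0.593 and -0.542 with Bdnf and 0.584 and 0.517 with Ngfr, but these were weaker in the second batch alone (-0.234 and -0.258 for Bdnf, 0.343 and 0.131 for Ngfr), and the endothelial value of Ngfr was 0.226 without the 2 farthest mice. Ntrk2 followed astrocytes (0.613, rho 0.594, 8 of 9 genes above 0, 0.653 and 0.594 within the batches). Its r was 0.375 with the choroid plexus (rho 0.521), 0.380 with the dentate gyrus and hippocampus (rho 0.504) and -0.432 with microglia (rho -0.496). The correlations with marker scores were not computed with the offsets for length and GC content. The r of Ntrk3 lay between -0.257 and 0.187 for the 11 lists over both batches. Within the batches Ntrk3 had r of -0.666 and 0.271 with astrocytes and -0.548 and 0.112 with the choroid plexus.

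**Figure D4:**
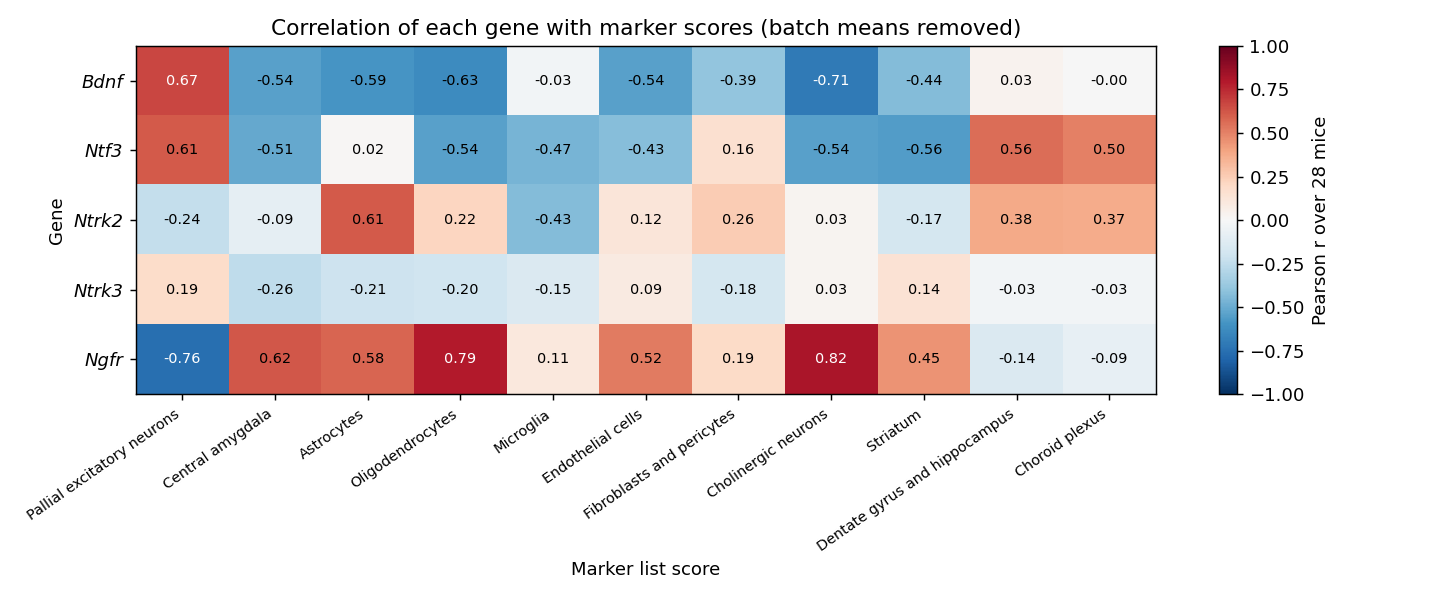
Pearson's r over 28 mice (colour, from -1 to 1, with the value in each cell) between each gene (rows) and the mean log2 CPM of each of 11 marker lists (columns), batch means removed. Ngfr and Bdnf have opposite signs for pallial excitatory neurons, oligodendrocytes and cholinergic neurons, and the highest value of Ntrk2 is with astrocytes (0.61).

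Summed cholinergic markers (among them Chat, Slc5a7, Slc18a3, Lhx8 and Gbx1) ranged from 3.90 to 42.5 CPM in Water mice (median 20.7), from 9.24 to 63.1 in Acute mice (median 26.8) and from 6.02 to 58.9 in Chronic mice (median 17.5), and none of the 6 was at 0 in every mouse. In each comparison 0 of 6 were called by edgeR, and 0 of 6 had an unadjusted p under 0.05. In the first batch, Water mice 40, 41, 42 and 43 had cholinergic scores of 0.57, 0.21, -2.35 and -2.67 on the log2 scale relative to the batch mean, and Chronic mice 37, 38 and 39 had 0.64, 1.29 and -0.25. The scores of Water and Chronic mice thus overlapped in that batch, with Water mice 42 and 43 the lowest. Oligodendrocyte scores, in the same order, were 0.064, -0.0095, -0.355 and -0.504 in the Water mice and 0.129, 0.249 and 0.0078 in the Chronic mice. The part of the cholinergic and oligodendrocyte markers in the Ngfr difference between batches, and in the relation of Bdnf to Ngfr, was not tested. Summed oligodendrocyte markers overlapped between the groups (1362 to 3299 CPM for Water, 1785 to 3285 for Acute and 1965 to 3185 for Chronic), as did those of pallial excitatory neurons (1614 to 2420, 1166 to 2193 and 1436 to 2206). At an unadjusted p under 0.05, 2 of the 8 pallial markers were lower and 2 of 9 astrocyte markers higher in Acute vs Water, where 4.45% of all genes were lower and 5.07% higher. In Chronic vs Water 2 of 8 striatal markers were lower (against 5.65% of all genes), with summed medians of 725 CPM in Chronic and 1056 CPM in Water mice and overlapping ranges (508.6 to 1075 and 437 to 1690). In the same comparison 2 of 8 endothelial markers were higher (against 4.81% of all genes), with summed levels of 174 to 196 CPM in Chronic and 164 to 198 CPM in Water mice. No other of the 11 lists had more than 1 marker under 0.05 in a direction in any comparison. None of these markers was called in edgeR, and their part in the values of Bdnf, Ntf3, Ntrk2 and Ngfr was not tested.

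The rest of the neurotrophin pathway was read from a list of 122 genes by role, of which 119 were tested and 3 (Npas4, Pcsk5 and Spry4) are not in both tables. In edgeR 0 of 119 were called in each comparison. At an unadjusted p under 0.05 there were 8 in Acute vs Water (5 higher, 3 lower; 6.72% of the list against 9.52% of all genes, of which 5.07% were higher and 4.45% lower), 19 in Chronic vs Water (6 higher, 13 lower; 15.97% against 10.5%, of which 4.81% were higher and 5.65% lower) and 3 in Chronic vs Acute (all lower; 2.52% against 4.44%, of which 1.95% were higher and 2.5% lower). The median log2 fold change of the list was -0.01 in all 3, and that of all genes 0.001, 0.002 and -0.001. With the offsets for length and GC content the count of 19 became 7 (2 higher, 5 lower), or 5.88% of the list against 6.07% of all genes, and it was 4 in the first batch alone (3.36% against 3.52% of all genes) and 22 in the second alone (18.5% against 13.4%). With 1 mouse left out at a time the list count ranged from 11 without Water mouse 4, and 12 without Chronic mouse 39 or Chronic mouse 1, to 23 without Water mouse 42. The count over all genes moved too, from 1702 with all mice to between 1232 and 2165 in these fits.

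Neither the other ligands nor the other receptors passed the test. Ntf5, the gene of neurotrophin-4, had log2 fold changes of 0.02 in Acute vs Water and -0.13 in Chronic vs Water (adjusted p = 0.987 and 0.892). Sort1, which encodes the pro-neurotrophin receptor sortilin, had -0.05 in both (0.695 and 0.659). None of the ligands, the receptors or the 8 genes of processing and release tested had an unadjusted p under 0.05 in any comparison. Of 15 genes known to be induced by TrkB signalling or neuronal activity, 1, Vgf, did so in each comparison with Water (0.11 and 0.12, and with the offsets 0.07 and 0.04, p = 0.107 and 0.345), while Arc (0.14 and -0.04), Egr1 (-0.03 and 0.01) and Fos (0.19 and 0.05) did not.

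In the signalling arms, the smallest p in each comparison with Water belonged to a gene of the calcium arm. In Chronic vs Acute 0 of the 10 genes of that arm had an unadjusted p under 0.05. Camk2g, which encodes a subunit of calcium/calmodulin-dependent kinase II, had a mean of 2890 ± 188 normalised counts in Water mice (SD, n = 10), 3175 ± 129 in Acute mice and 3166 ± 200 in Chronic mice (n = 9 each). Its log2 fold change was 0.14 ± 0.04 (SE) in Acute vs Water (p = 0.000953, adjusted p = 0.345) and 0.13 ± 0.04 in Chronic vs Water (p = 0.00164, adjusted p = 0.222), with 9 of 9 mice above the Water mean each time. Camk4, which encodes a calcium/calmodulin-dependent kinase that phosphorylates CREB, had 995 ± 118.5 normalised counts in Water mice, against 899 ± 58.5 with Acute and 859 ± 72.2 with Chronic drinking. Its log2 fold change was -0.22 ± 0.05 in Chronic vs Water (p = 0.000398, adjusted p = 0.181, 9 of 9 mice lower) and -0.14 ± 0.05 in Acute vs Water (p = 0.0163, adjusted p = 0.467). These values were little moved by the offsets (0.14 and 0.12 for Camk2g and -0.16 and -0.24 for Camk4 in Acute and Chronic vs Water). In Chronic vs Water, Camk4 was called by DESeq2 with batch as a covariate (adjusted p = 0.0485), and both Camk4 (adjusted p = 0.0240) and Camk2g (adjusted p = 0.0326) by DESeq2 after ComBat-seq. No other alternative, and no fit without 1 of the mice, called a gene of the list.

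Among the other genes with the smallest p, those higher in Acute vs Water included the kinase gene Akt1 (0.09), the adaptor gene Frs3 (0.14) and the neuropeptide precursor gene Vgf (0.11), and those lower were Sos1, a nucleotide exchange factor of Ras (-0.14), and the ribosomal S6 kinase gene Rps6ka3 (-0.11), all in log2 fold change with adjusted p from 0.407 to 0.497. In Chronic vs Water those higher were Akt1 (0.09), Map2k2 (0.10), Vgf (0.12) and Frs3 (0.14), and those lower were Rps6ka3 (-0.17), the transcription factor gene Foxo3 (-0.13), Crem, a relative of CREB that can repress its targets (-0.16), and Pdpk1, the kinase that activates Akt (-0.10), with adjusted p from 0.239 to 0.372. Crem (-0.19, 9 of 9 Chronic mice below the Acute mean), the small GTPase gene Rap1a (-0.11) and Pdpk1 (-0.08) were the 3 of Chronic vs Acute (adjusted p = 0.998 for each). With the offsets for length and GC content, Frs3 (0.11, p = 0.0694) and Rps6ka3 (-0.08, p = 0.1101) no longer had an unadjusted p under 0.05 in Acute vs Water, while Sos1 went to -0.09 (p = 0.0290). In Chronic vs Water Akt1 (0.04, p = 0.131), Frs3 (0.09, p = 0.144), Pdpk1 (-0.06, p = 0.0958) and Crem (-0.12, p = 0.0562) no longer did, nor did Rap1a in Chronic vs Acute (-0.09, p = 0.0549).

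**Figure D5:**
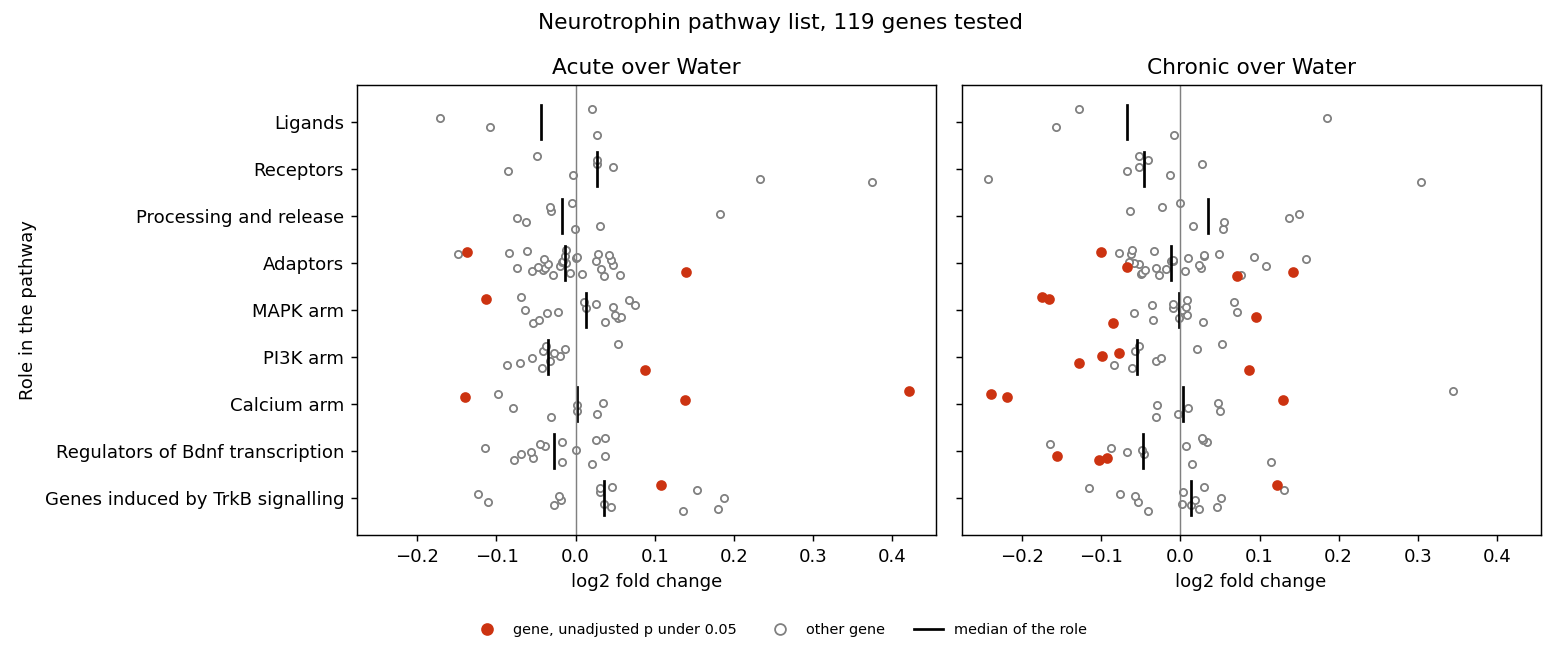
Log2 fold change (x axis) of the 119 tested genes of the neurotrophin pathway list by role (y axis), in Acute over Water and Chronic over Water; red points have an unadjusted p under 0.05, open points do not, and black lines are role medians. There are 8 red points on the left and 19 on the right, 13 of them below 0, and no gene passed the adjusted threshold in edgeR.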

How the data were processed

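Amygdala RNA of 28 mice was sequenced as paired-end reads. Per the study's methods and processing notes, the authors checked reads with FastQC 0.11.8, quantified them with Salmon 0.14.1 against a GRCm38 transcriptome (GENCODE M21 identifiers) and summed them by gene; they deposited whole-number counts, unnormalised and before batch adjustment, in a table for each batch. The tables were joined on gene identifier. In R 4.3.3, genes averaging at least 10 counts were tested with edgeR 4.0.16 (quasi-likelihood, TMM, batch as covariate, all 3 groups, Benjamini-Hochberg over 16266 genes, threshold 0.05). On simulated data with 100 genes changed at each size, it recovered 76% (log2 change 0.5) and 96% (log2 change 1) in Acute vs Water and 69% and 95% in Chronic vs Water. It also called 8 and 7 unchanged genes. The changed genes were drawn at random from those tested. These shares therefore do not carry over to genes as variable as Ntf3 and Ngfr, or to smaller changes. CPM were TMM-scaled, and log2 CPM used a prior count of 2. Exact permutation tests enumerated 32340 regroupings within batches (16170 for Chronic vs Acute). Intervals are 95% and cover the spread between mice and counting error.

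Alternatives were DESeq2 1.42.0, ComBat-seq (sva 3.50.0) then DESeq2, limma-voom (limma 3.58.1) with quality weights, RLE and upper quartile scaling, no filter, a mean of at least 100 counts, each batch alone, a replicate block, only the groups compared, length and GC offsets, and leaving out each mouse. Named were the members, up to 5 pathway genes in each direction with the smallest unadjusted p under 0.05 in each comparison, and the 3 genes most like each member; Ntf5, Sort1, Arc, Egr1 and Fos, and the marker genes listed, were named after their values were seen. Some genes of the lists count in the totals and scores but are not reported here by name. The members and lists were chosen with earlier results of these data known. None of 55 same-group pairs of mice agreed within sampling noise (lowest chi-square per degree of freedom 3.95).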

Additional observations from a re-analysis of the deposited data

Results flagged for a closer look

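Of the 15 sets of values formed by 5 genes and 3 groups, with batch means removed, 2 had a mouse whose gap to the nearest of its group exceeded Dixon's 95% critical value, which chance does in about 1 of 20 groups. Ntf3 in Acute mouse 4 of the second batch stood at -1.99 on the log2 scale relative to its batch mean, against -0.39 in the next Acute mouse (gap over range 0.614, critical value 0.493), and rests on 2 counts. The Acute vs Water log2 fold change of Ntf3 was -0.17 with all mice and -0.033 without this mouse. Ntrk3 in Acute mouse 33 of the first batch stood at -0.249, against -0.079 in the next Acute mouse (gap over range 0.534). The same Acute mouse 33 had the lowest Bdnf (15.4 CPM) and the highest Ngfr (13.8 CPM) of the study.

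For Ngfr in Chronic vs Water, every Chronic mouse of the first batch was above the mean of that batch's Water mice and every Chronic mouse of the second was below the mean of its Water mice. The second batch minus the first was -2.33 on the log2 scale, with an unadjusted p of 0.00247 and an adjusted p of 0.718 over 16266 genes, so it did not pass the test of the difference. Cholinergic markers moved with Ngfr across the mice (r = 0.819), and their part was not tested.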

How the results depend on the processing

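No member with an adjusted p was called under any alternative: over 594 refits of the 15 member fold changes, the lowest adjusted p was 0.459, 7 (of Ntf3 and Ngfr with DESeq2) had no adjusted p, and 2 had an unadjusted p under 0.05, both of Ngfr in the first batch alone. Several fold changes changed sign, and the cause was not tested. In Acute vs Water the changed values were for Bdnf -0.072 in the first batch alone and -0.000456 with the replicate block, for Ntf3 0.044 with limma-voom, for Ntrk2 0.00354 without a filter and 0.060 with the length and GC offsets, for Ntrk3 0.00049 with these offsets, and for Ngfr -0.11 in the second batch alone. In Chronic vs Water they were for Bdnf 0.017 with ComBat-seq and DESeq2, 0.0355 with limma-voom, 0.15 in the second batch and 0.047 with the offsets, for Ntf3 -0.00094 and for Ntrk2 0.039 in the first batch, for Ntrk2 0.033 with the offsets, and for Ngfr -0.63 in the second batch. In Chronic vs Acute they were for Bdnf 0.056 in the second batch, for Ntrk2 0.00811 and for Ngfr 0.27 with limma-voom, for Ntrk2 0.040 and for Ngfr 0.47 in the first batch, and for Ntrk3 -0.0096 with the offsets. Leaving out 1 mouse at a time (28 fits) gave ranges across 0 for Bdnf of -0.018 to 0.092, -0.046 to 0.058 and -0.093 to 0.033 in the 3 comparisons in that order, for Ntrk2 of -0.021 to 0.014, -0.030 to 0.0020 and -0.027 to 0.0074, and in Chronic vs Acute for Ntrk3 of -0.0086 to 0.047 and for Ngfr of -0.30 to 0.25. Ngfr in Acute vs Water went from 0.38 to 0.10 without Acute mouse 4 or Acute mouse 33 and to 0.68 without Water mouse 6, and in Chronic vs Water from 0.30 to 0.11 without Chronic mouse 38 and to 0.61 without Water mouse 6.

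Over all genes, the number called in Acute vs Water was 0, against 8 with DESeq2, 30 with ComBat-seq and DESeq2, 2 with limma-voom, 1 without a filter and 0 to 2 with 1 mouse left out (2 without Chronic mouse 38, 1 without Acute mouse 34). In Chronic vs Water it was 3, against 36 with DESeq2, 98 with ComBat-seq and DESeq2, 0 in the first batch alone, 1 with the offsets and 2 to 6 with 1 mouse left out (6 without Water mouse 3, 5 without Chronic mouse 37). In Chronic vs Acute it was 0, against 1 without a filter. Pathway genes called in Chronic vs Water numbered 1 with DESeq2 and 2 with ComBat-seq and DESeq2. The pathway genes with an unadjusted p under 0.05 in Chronic vs Acute numbered 3 (2.52% of the list against 4.44% of all genes). In the second batch alone they numbered 7 (5.88% against 3.99%). They numbered 6 without Chronic mouse 3, and 5 without Acute mouse 33 or Chronic mouse 38. The count over all genes also moved with 1 mouse left out, so these counts alone do not show a move particular to the list. The deviations of the 16 pairs of mice that share a replicate number in the second batch had r from -0.346 to 0.338, above 0.1 in 4. These values alone cannot show whether the numbers pair the mice. The replicate block left 0, 3 and 0 genes called. The exact permutation tests kept their side of 0.05 and their direction with RLE size factors and with a prior count of 0.5. Ntf3 rests on 2 to 36 counts per mouse, and the spread between mice beyond counting error was wide for Ntf3 (43.0%) as well as Ngfr (56.2%).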

Other observations

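Npas4, Pcsk5 and Spry4, genes of the pathway list that are not in both tables, could be read in the 17 mice of the second batch alone, where the groups overlapped for each of them and no test was run. Npas4, an activity-induced regulator of Bdnf, stood at 18.9 to 28.03 CPM in 6 Water mice (median 25.99), 24.5 to 30.0 in 5 Acute mice (median 28.5) and 21.5 to 29.3 in 6 Chronic mice (median 25.8). Spry4, which encodes a feedback inhibitor of receptor tyrosine kinases, had medians of 13.4, 13.3 and 13.6 CPM. Pcsk5, which encodes a proprotein convertase, had medians of 14.3, 14.97 and 13.9 CPM.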
